A study of Drosophila melanogaster with 6 samples.

Results

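The Rab GTPases are the family of small membrane-bound GTPases that mark vesicles and organelles. They were taken here as every gene whose symbol is Rab or RabX followed by a number and optional letters, which gave 33 of the 17737 genes in the table. The libraries came from larval PPL1-γ1pedc dopamine neurons, which innervate the γ1pedc zone of the mushroom body, the learning center of the fly brain. The groups were 3 Stromalin knockdown (KD) libraries, with the ΔTH-D'-GAL4 driver, UAS-StromalinRNAi, UAS-dicer2 and UAS-mCD8:GFP, and 3 control libraries, with the same driver, UAS-dicer2 and UAS-mCD8:GFP but no RNAi. Stromalin is a subunit of cohesin, the ring complex that holds and folds chromosomes. Every library held 25 GFP-positive cell bodies picked by hand from dissociated brains of larvae 120 h after egg laying, pooled over many animals. The driver labels only a few neurons per larval brain, and each library was collected on a day of its own, with the genotypes in alternation.

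A Rab protein is switched on when a guanine nucleotide exchange factor (GEF) loads it with GTP and switched off when a GTPase activating protein (GAP) makes it hydrolyze that GTP. In the GTP form it sits on one kind of membrane and recruits effectors that move, tether and dock vesicles, and in the GDP form the GDP dissociation inhibitor Gdi carries it back through the cytosol. In neurons, secretory Rabs carry new membrane proteins from the endoplasmic reticulum through the Golgi to the surface, endosomal Rabs sort and recycle what is taken back, and Rab3 rides on synaptic vesicles. By these known roles the members were split into 8 secretory, 9 endosomal and 3 synaptic or regulated secretory vesicle Rabs, and 13 others.

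The libraries held between 8638734 and 9624935 counts in Stromalin KD and between 7790921 and 9625056 counts in control. Genes named as rRNA took 18.8% to 21.5% of the counts in KD and 16.6% to 30.3% in control, the highest being control 1. At least 10 counts were seen for 2352 to 3732 genes in KD libraries and for 2298 to 4004 genes in control libraries. The gene targeted, Stromalin (SA), had 3, 0 and 0 counts in KD libraries and 0, 0 and 1372 counts in control libraries, so that it was measured in 1 control library only and could not check the labels of the others. All 4 dopamine neuron markers (ple, Vmat, DAT and Ddc) had counts in every library, with sums of 137796 to 358355 counts in KD and 145245 to 364250 counts in control. The glial markers repo and alrm were at 0 in every library, while the 5 glial markers together summed to 0 to 1617 counts in KD and 3 to 3824 counts in control. Of these, nrv2 had 1187, 728 and 0 counts in KD libraries and 3, 3824 and 0 counts in control libraries. The neuroblast markers dpn, ase and wor were also at 0 throughout, the list of 4 summing to 0 to 800 counts in KD and 0 to 244 counts in control. All of these counts were from grh, with 0, 681 and 800 in KD libraries and 0, 244 and 0 in control libraries. Of the 9 markers of other transmitter types, ChAT, Gad1, Tdc2 and Trh were at 0 and the sums ran from 500 to 2548 counts in KD and from 0 to 617 counts in control. VGAT had 1762, 500 and 1737 counts in KD libraries and 112, 0 and 0 counts in control libraries, which did not overlap. A separation of this kind was seen for 6.62% of all genes tested. No difference in cell content between the groups is therefore read from VGAT alone. VAChT and VGlut had counts in KD 3 only, SerT in KD 1 only and Tbh in control 3 only. The blood cell markers Hml and NimC1 were at 0, and the 9 fat body and blood cell markers summed to 3 to 6005 counts in KD and 1 to 10970 counts in control, the highest being control 2. The largest single values were 5686 counts of Lsp1beta in KD 3 and 5593 counts of Lsp1gamma in control 2. The part of any such RNA in the Rab values was not tested. In such pooled cells, fewer cells with a transcript and less of it per cell cannot be told apart.

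A small core of Rab genes was found in every library, and the rest came and went from library to library. Taking 10 counts as found, 5 of the 33 members (15.2%) were found in all 6 libraries, against 5.64% of all genes in the table. They were Rab3 on synaptic vesicles, Rab1 between the endoplasmic reticulum and the Golgi, Rab10 on vesicles bound for the surface, Rab5 on early endosomes and Rab35 on recycling endosomes. Another 7 members were found in 5 libraries, 1 in 4, 3 in 3, 1 in 2 and 3 in 1 library. In all, 20 of the 33 (60.6%) were found in at least 1 library, against 34.5% of all genes. Among genes with any count at all, 5 of 22 Rab genes (22.7%) were found in all 6 libraries, against 1001 of 6922 genes (14.5%). These shares are a description and were not tested. Single KD libraries held 18, 15 and 8 Rab genes and single control libraries held 14, 16 and 12. Rab genes were thus fewest in KD 3, which also held fewer genes of any kind than the other KD libraries. Control 3 held fewer genes still (2298 against 2352) but 12 Rab genes against 8 in KD 3. Without KD 3 the number of Rab genes found everywhere was 9 in place of 5.

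**Figure D1:**
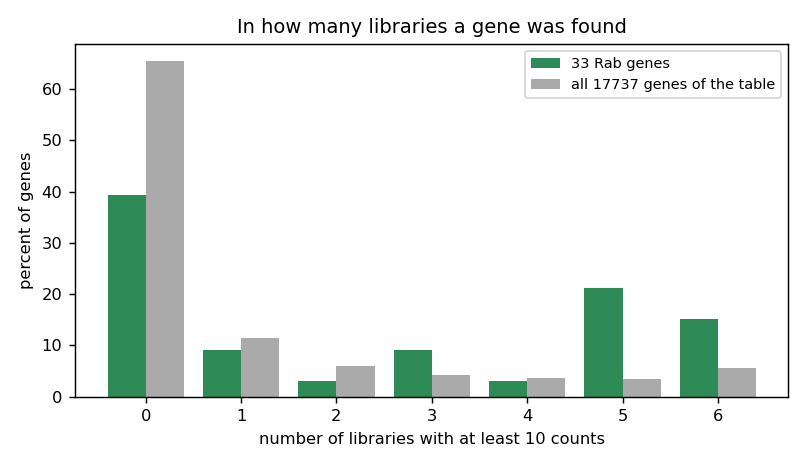
Share of genes (percent, vertical axis) by the number of libraries with at least 10 counts (horizontal axis), for the 33 Rab genes and for all 17737 genes of the table. The Rab genes stand above all genes at 5 and 6 libraries and below them at 0 libraries.

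No count was seen in any library for 11 members. These were Rab9 and its copies Rab9D, Rab9Db, Rab9E, Rab9Fa and Rab9Fb, Rab19, Rab23 (a regulator of planar polarity), Rab27 (a Rab of regulated secretory vesicles), RabX2 and RabX5. At these depths, 0 counts in a library allow a level of up to 0.312 to 0.385 CPM (counts scaled to the library total), a limit that covers counting error only. Rab9D, Rab9Db, Rab9E, Rab9Fa and Rab9Fb lie together on the X chromosome between positions 10589089 and 10952486 (BDGP6), and no source used here states how reads that match several such copies were counted. Rab21, an early endosome Rab, had 3, 1 and 0 counts in KD libraries and 1, 1 and 3 counts in control libraries, and Rab30, a Golgi Rab, had 1 count in KD 1 alone. These 13 members therefore say nothing about the knockdown. On the X chromosome lie 13 of the 33 Rab genes (39.4%), against 15.1% of the genes with a place in the annotation, and 5 of these 13 were found in at least 1 library, against 15 of the 20 Rab genes on other chromosomes. The X members not found include the clustered copies Rab9D, Rab9Db, Rab9E, Rab9Fa and Rab9Fb. The share found over all X genes was not computed, so no difference between chromosomes is read from this.

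**Figure D2:**
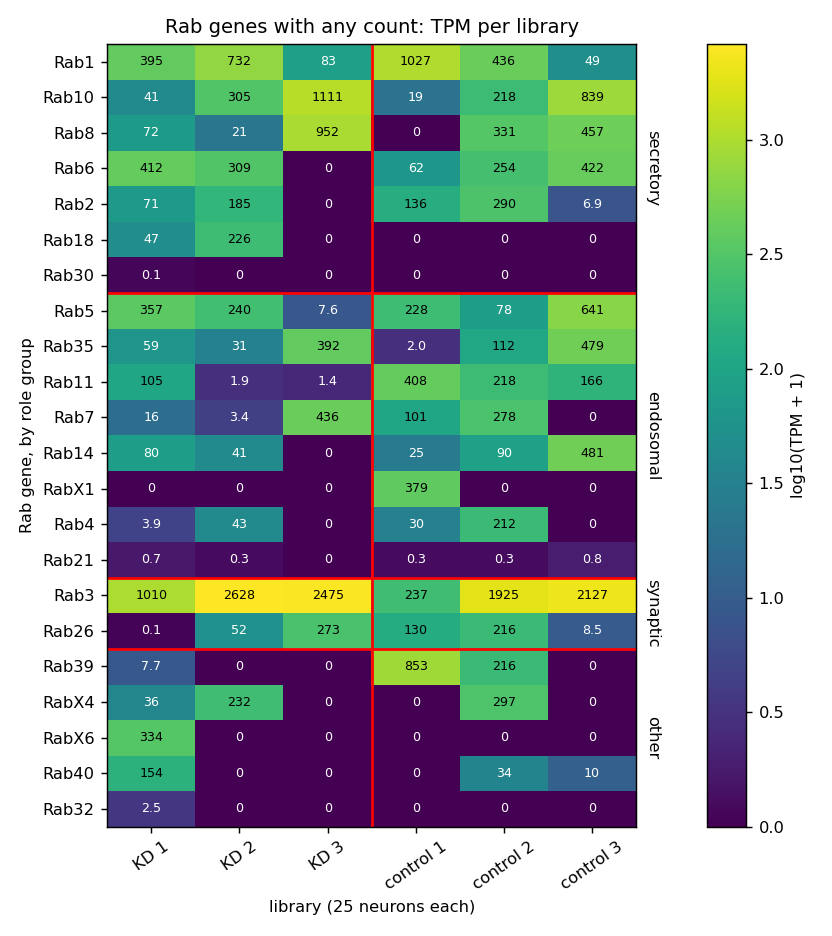
TPM (printed in each cell, color on a log10 scale) of the 22 Rab genes with any count, by library, with Stromalin KD left of control and genes ordered by role group and mean TPM. Rab3 is high in every library but control 1, and many other members have 0 in some libraries of both groups.

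Rab3 was the leading Rab transcript of these neurons and the most even of the 5 found everywhere, and its level in Stromalin KD could not be told from control. Rab3 (chr2R:10721335-10729203, minus strand) encodes the Rab of synaptic vesicles, which acts with the active zone protein Rim in docking and priming them. Its level in TPM (counts scaled to gene length and library total) was 1010, 2628 and 2475 TPM in KD libraries and 237, 1925 and 2127 TPM in control libraries. Control 1 stood far below the other 5 libraries, and the groups overlapped. Among all genes ordered by TPM, Rab3 ranked 71, 24 and 27 in KD libraries and 548, 39 and 46 in control libraries. It was the highest Rab gene in 5 of the 6 libraries, while in control 1 Rab1 led with 1027 TPM. Of the summed TPM of all Rab genes, Rab3 made up 31.5%, 52.1% and 43.2% in KD libraries and 6.51%, 37.0% and 37.4% in control libraries.

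In normalized CPM (CPM after TMM scaling of the library totals), Rab3 averaged 2550 ± 952 in KD and 1886 ± 1356 in control (SD, n = 3 each). Its log2 fold change, KD over control, was 0.44 with a standard error of 0.59 and a 95% confidence interval of -0.72 to 1.59 (edgeR quasi-likelihood test, Benjamini-Hochberg adjusted p = 0.9996). An exact two-sided permutation test over the 6 libraries gave p = 0.6, where 3 against 3 libraries cannot give less than 0.1. DESeq2 gave a log2 fold change of 0.43 with a wider standard error of 2.17. Without control 1, the library with the most rRNA, the edgeR log2 fold change was -0.046. The highest library exceeded the lowest by 8.12 times, against a median of 15.6 times over the 1001 genes found in all libraries. The same ratio was 24.2 for Rab1, 45.1 for Rab10, 94.3 for Rab5 and 206 for Rab35.

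**Figure D3:**
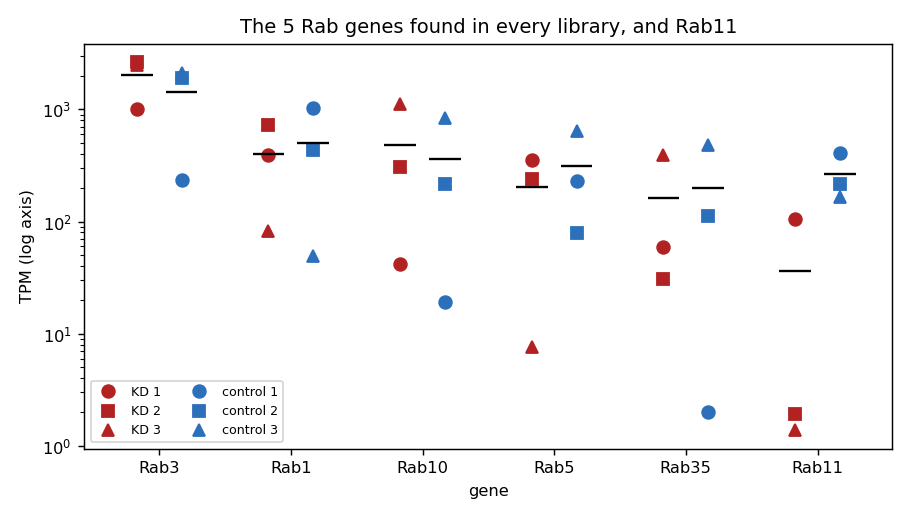
TPM (log axis) of the 5 Rab genes found in every library and of Rab11, with Stromalin KD in red left of control in blue, 1 point per library with a shape per replicate number and a black bar at the mean of each group. Among these genes, the points of the groups separate for Rab11 only, where KD lies at 1.37 to 105 TPM and control at 166 to 408 TPM.

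The other synaptic and regulated secretory vesicle Rabs gave little. Rab26 (chr3L:21318774-21335027, plus strand), which in mammals links synaptic vesicles to autophagy, had 0.069, 52.3 and 273 TPM in KD libraries and 130, 216 and 8.50 TPM in control libraries. It was low in KD 1 and control 3, and the groups overlapped (log2 fold change -0.22, SE 2.31). Its exons overlap an antisense RNA, asRNA:CR46068, over 200 bases, and that RNA had 0 counts in every library. The summed level of the synaptic group, of which Rab27 was at 0, was 1010, 2680 and 2748 TPM in KD libraries and 366, 2141 and 2135 TPM in control libraries. The means differed by 598 TPM (KD minus control), and by 7.71 TPM without control 1.

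Secretory Rabs were present in every library, but from library to library different genes carried their sum. This sum was 1038, 1777 and 2147 TPM in KD libraries and 1244, 1529 and 1773 TPM in control libraries, or 1654 ± 564 TPM in KD and 1515 ± 265 TPM in control (SD, n = 3 each). The difference of 139 TPM was smaller than the spread in either group, and it was -107 TPM without KD 3. None of the 6 secretory Rabs tested had an adjusted p under 0.05.

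Rab1 (chr3R:21266029-21269060, minus strand), which directs traffic between the endoplasmic reticulum and the Golgi, had 395, 732 and 82.9 TPM in KD libraries and 1027, 436 and 49.0 TPM in control libraries. It was lowest in the libraries numbered 3 of both groups and highest in control 1, so that the groups overlapped (log2 fold change -0.58, SE 1.66). An antisense RNA, asRNA:CR45798, overlaps 742 bases of its exons and had 0 counts in every library. Rab2 (chr2R:6696739-6699469, plus strand), which acts at the Golgi, had 70.9, 185 and 0 TPM in KD libraries and 136, 290 and 6.93 TPM in control libraries. Like Rab1, it was lowest in KD 3 and control 3, and the groups overlapped (log2 fold change -0.85, SE 3.57). Rab6 (chr2L:12107221-12109116, minus strand), a Rab of the Golgi and of vesicles leaving it, had 412, 309 and 0 TPM in KD libraries and 62.0, 254 and 422 TPM in control libraries. It was the highest of the secretory Rabs in KD 1 and was not found in KD 3 (log2 fold change -0.07, SE 2.37).

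Rab8 and Rab10, both of which serve the last step from the Golgi to the plasma membrane, ran the other way. Rab10 (chrX:20251338-20254691, plus strand) had 41.5, 305 and 1111 TPM in KD libraries and 19.1, 218 and 839 TPM in control libraries. Rab8 (chr3L:19867488-19871078, minus strand) had 72.0, 20.7 and 952 TPM in KD libraries and 0, 331 and 457 TPM in control libraries. Both were highest in the libraries numbered 3, where Rab1 and Rab2 were lowest, and both were at their lowest in control 1. The knockdown comparison gave a log2 fold change of 0.31 (SE 1.54) for Rab10 and 0.38 (SE 1.87) for Rab8, with overlap for both. As the libraries numbered 3 were collected on different days, that number names no shared day.

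Rab18 (chrX:5670827-5671812, minus strand), a Rab of the endoplasmic reticulum and lipid droplets, was found in 2 KD libraries and in no control library. Its counts were 129, 590 and 0 in KD libraries and 0, 0 and 0 in control libraries, or 24.2 ± 30.0 normalized CPM in KD and 0 in control (SD, n = 3 each). KD 3 was at 0 like the controls, so that the groups overlapped. With 3 counts taken as the limit for the control libraries together, the KD mean was at least 200-fold higher, a bound that covers counting error only. Without KD 2 it was at least 61.7-fold, and over every library left out in turn the bound ran from 61.7 to 301. The fitted log2 fold change of 10.71 (SE 5.99) had an adjusted p of 0.809 in edgeR and of 0.0677 in DESeq2. It was the only tested Rab gene with 0 counts in all 3 control libraries, a state of 4.35% of all genes tested. Counts of 0 in all 3 KD libraries were seen for 0 of the 17 tested Rab genes, against 2.76% of all genes tested.

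Endosomal Rabs had the one sum in TPM that did not overlap between the groups, lower in Stromalin KD, yet no single endosomal gene passed the test, and whether the groups stayed apart depended on the members summed and on the scale. The summed level was 622, 359 and 837 TPM in KD libraries and 1173, 988 and 1768 TPM in control libraries, or 606 ± 239 TPM in KD and 1310 ± 407 TPM in control (SD, n = 3 each). RabX1 (chr2R:23519839-23523613, minus strand), an endosomal Rab of the fly, had 379 TPM in control 1 and 0 in the other 5 libraries. Without RabX1 the sum in control 1 was 794 TPM, which is below the 837 TPM of KD 3, so that the groups overlapped, with a difference of means of -577 TPM in place of -704 TPM. In TPM computed without rRNA genes the sum was 990, 583 and 1304 in KD libraries and 2217, 1416 and 2803 in control libraries. These did not overlap, and without RabX1 control 1 was at 1500 on that scale, still above every KD library. The separation also rested on Rab11 and on Rab4. Rab11 gave 218 TPM and Rab4 gave 212 TPM of the sum in control 2, against 1.37 and 0 TPM in KD 3. With Rab11 alone or Rab4 alone left out, control 2 falls below KD 3 on both TPM scales, so that the groups overlap. Both genes were picked for this after their values were seen. As a share of the Rab sum, endosomal Rabs made up 19.4%, 7.11% and 14.6% in KD libraries and 32.3%, 19.0% and 31.1% in control libraries, which overlapped. In size-factor normalized counts the endosomal sum was 4504, 2118 and 5727 in KD libraries and 8018, 3971 and 14494 in control libraries, with overlap. Rab39, counted here among the other Rabs, also acts at late endosomes, and with it the sum was 630, 359 and 837 TPM in KD libraries and 2027, 1205 and 1768 TPM in control libraries. These did not overlap, nor did they without RabX1, where control 1 was at 1647 TPM. Rab39 was added after its values were seen, and it had the lowest log2 fold change of the tested Rab genes (-7.21). The sums with Rab39 are therefore no separate support for a lower endosomal level. No p is given, since the groups of genes were made with these data known. No background share was computed for such sums. Among single genes, 6.62% of all genes tested had groups that did not overlap, and the sums of the other role groups overlapped.

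**Figure D4:**
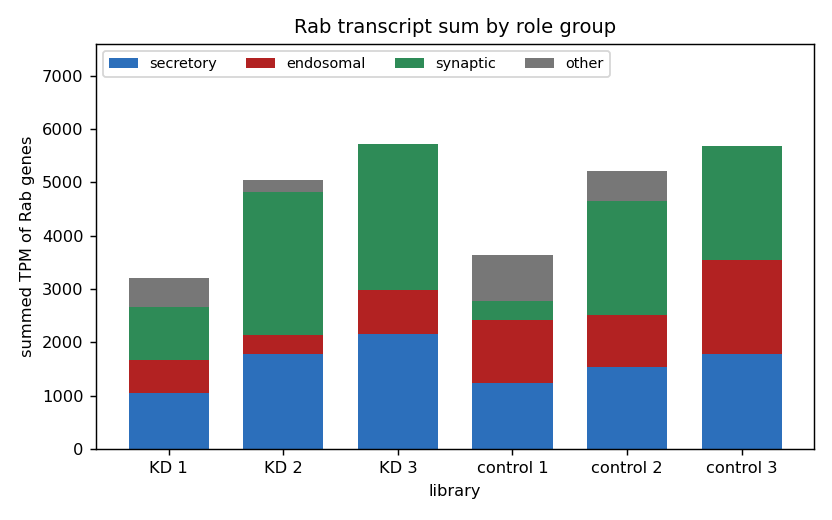
Summed TPM of the Rab genes (vertical axis) by library, stacked by role group, with Stromalin KD left of control. The endosomal part is 359 to 837 TPM in KD and 988 to 1768 TPM in control, and the total runs from 3205 to 5731 TPM in KD and from 3636 to 5686 TPM in control.

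Rab11 (chr3R:21111408-21116146, plus strand), the Rab of recycling endosomes, was the only tested member whose groups did not overlap. It had 632, 11 and 7 counts in KD libraries and 2286, 1248 and 862 counts in control libraries, which is 105, 1.93 and 1.37 TPM in KD and 408, 218 and 166 TPM in control. All 3 KD libraries lay below all 3 control libraries, with KD 2 and KD 3 far below KD 1. In normalized CPM it averaged 25.0 ± 41.6 in KD and 187 ± 119 in control (SD, n = 3 each). The exact two-sided permutation test gave p = 0.1, the smallest that 3 against 3 libraries allow. The edgeR log2 fold change was -2.90 with a standard error of 3.18, a 95% confidence interval of -9.13 to 3.33 and an adjusted p of 0.9996, and so Rab11 did not pass the threshold. Groups that do not overlap were seen for 6.62% of all genes tested, and 1 of 17 Rab genes is close to that share.

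Rab5 (chr2L:2359142-2365273, minus strand), which organizes early endosomes, had 357, 240 and 7.58 TPM in KD libraries and 228, 78.3 and 641 TPM in control libraries. Its lowest and highest values were in KD 3 and control 3, and the others mixed (log2 fold change -0.79, SE 1.66, and 0.19 without control 3). Rab7 (chr3R:23993008-23995452, plus strand), which takes late endosomes to the lysosome, had 16.3, 3.38 and 436 TPM in KD libraries and 101, 278 and 0 TPM in control libraries. Here KD 3 was the highest and control 3 was at 0, so that the groups overlapped (log2 fold change 0.26, SE 3.32).

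Among the recycling Rabs, Rab35 (chrX:20155766-20159872, minus strand) had 59.2, 30.6 and 392 TPM in KD libraries and 2.01, 112 and 479 TPM in control libraries. Like Rab10 it was highest in the libraries numbered 3 and lowest in control 1 (log2 fold change -0.39, SE 1.97). Rab4 (chr2R:17573462-17574979, plus strand), a Rab of fast recycling, had 3.90, 42.7 and 0 TPM in KD libraries and 30.3, 212 and 0 TPM in control libraries (log2 fold change -2.43, SE 4.58). Rab14 (chr2L:14355145-14358764, plus strand), which in mammals acts between endosomes and the Golgi, had 80.5, 40.5 and 0 TPM in KD libraries and 24.6, 89.5 and 481 TPM in control libraries (log2 fold change -2.35, SE 3.47). Both had overlapping groups, and for both a single control library was the highest. On the opposite strand the exons of Rab4 share 1 base with Dcr-2, the gene also carried as UAS-dicer2, which had 32147 to 52620 counts in KD libraries and 32485 to 57439 counts in control libraries.

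The remaining Rabs were carried by a few libraries each. Rab39 (chrX:7734923-7736756, plus strand), a Rab of late endosomes and lysosomes, had 36, 0 and 0 counts in KD libraries and 3707, 961 and 0 counts in control libraries. Control 3 was at 0 like KD 2 and KD 3, so that the groups overlapped, and the normalized CPM averaged 1.39 ± 2.40 in KD and 207 ± 281 in control (SD, n = 3 each). Its log2 fold change was -7.21 with a standard error of 3.91 (edgeR adjusted p = 0.809), DESeq2 gave an adjusted p of 0.245, and the exact permutation test gave p = 0.4. Rab40 (chrX:12459796-12463112, minus strand), which joins a ubiquitin ligase, had 154, 0 and 0 TPM in KD libraries and 0, 34.0 and 10.1 TPM in control libraries (log2 fold change 2.04, SE 4.51). RabX4 (chr3R:24826665-24828409, minus strand) had 36.0, 232 and 0 TPM in KD libraries and 0, 297 and 0 TPM in control libraries (log2 fold change -0.11, SE 4.06). Both had overlapping groups. The exons of RabX4 share 131 bases with Kaz on the same strand, and Kaz had 0 counts in every library. RabX6 had 1421 counts in KD 1 and 0 elsewhere, and Rab32, a Rab of pigment granules and other lysosome-related organelles, had 34 counts in KD 1 and 0 elsewhere. RabX6 shares 466 bases of exon with Vti1a on the opposite strand, and Vti1a too had counts, 123 of them, in KD 1 only. No source used here states whether the counting used strand, so these counts cannot be assigned to one of the pair with certainty.

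Over the whole family, Stromalin KD changed no Rab gene past the threshold in the edgeR test. A total of 17 members had at least 10 counts in at least 2 libraries and were tested. Of these, 6 had a log2 fold change above 0 and 11 below 0, where 48.8% of all genes tested lay below 0. None of the 17 had an adjusted p under 0.05, against 0.0489% of the 4093 genes tested, which is 2 genes. At an unadjusted p under 0.05, edgeR counted 0 of 17 Rab genes, against 3.23% of all genes, and under 0.1 it counted 2 (Rab18 and Rab39), against 10.1%. DESeq2 called 0 of 17 at an adjusted p under 0.05, against 5.46% of the 2930 genes to which it gave one, and at an unadjusted p under 0.05 it counted 2 of 20, again Rab18 and Rab39, against 9.67% of the 4375 genes with a p. With its own filters for low counts and outlying counts switched off, DESeq2 called 3 of 22 members, namely RabX1, RabX6 and Rab18, against 21.1% of 6922 genes. RabX1, with 1931 counts in control 1, and RabX6, with 1421 counts in KD 1, were at 0 in the other 5 libraries.

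The median log2 fold change of the 17 was -0.22, against 0.07 over all genes tested, and the median size without regard to sign was 0.58, against 1.59. By group, the medians were 0.12 over 6 secretory, -1.57 over 6 endosomal, 0.11 over 2 synaptic and -0.11 over 3 other members. Of the endosomal members, 5 lay below 0 and 1 above, where 48.8% of all genes tested lay below 0. The endosomal median size without regard to sign was 1.57, close to the 1.59 over all genes tested. The smallest unadjusted edgeR p of the endosomal members was 0.361. The median standard error of the 17 was 3.18 on the log2 scale, so that changes of severalfold in most single Rab genes were not detectable in these libraries. Rab3 alone had a standard error under 1 in edgeR, and DESeq2 gave it a standard error of 2.17. A p over the threshold does not show that the level of a gene was the same.

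**Figure D5:**
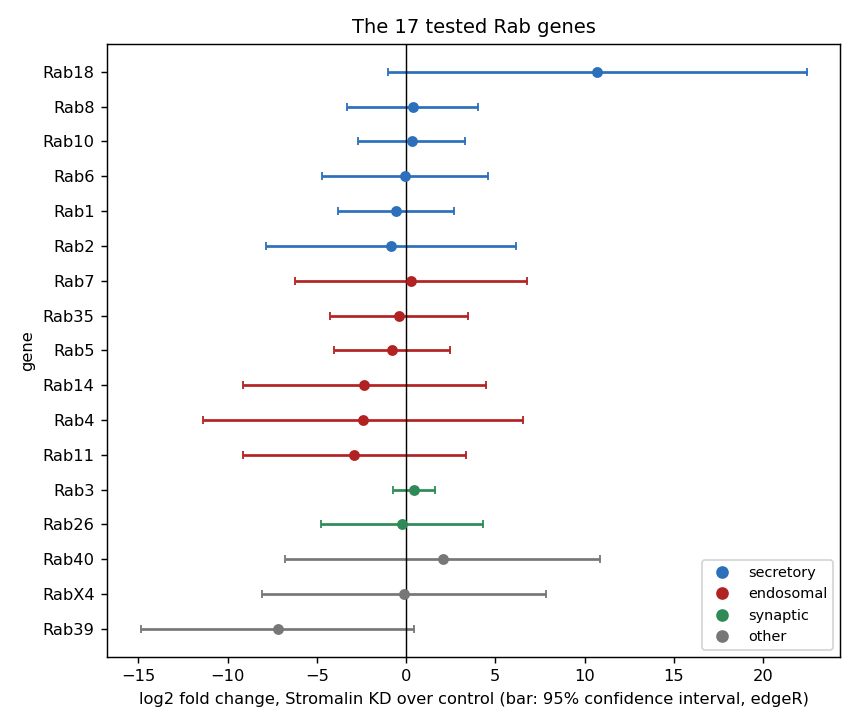
Log2 fold change, Stromalin KD over control, of the 17 tested Rab genes with 95% confidence intervals from the edgeR fit, ordered by role group and fold change. Every interval includes 0, the narrowest is that of Rab3 (-0.72 to 1.59), and those of Rab18 and Rab39 reach farthest from 0.

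Genes listed as regulators and effectors of Rabs were likewise found in all libraries for a few genes and in some libraries for most. A list of 108 symbols, set up as regulators and effectors, matched 69 genes in the table. Roles were not checked gene by gene, and the class of PI31, CG12147, CG42668 and Pink1 is in doubt. The other 39 symbols, some of them alternative spellings, matched none and those genes were not analysed here. Of the 69, 7 were found in all libraries, 14 in none and 45 were tested, with 23 above 0 and 22 below. In edgeR 0 of the 45 had an adjusted p under 0.05, against 0.0489% of all genes tested. At an unadjusted p under 0.05 edgeR counted 0 of them, against 3.23%, and under 0.1 it counted 4, against 10.1%. DESeq2 counted 6 regulators at an unadjusted p under 0.05, where it counted 9.67% of all genes with a p. The median log2 fold change was 0.09, against 0.07 over all genes tested.

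The 7 genes found everywhere were Gdi, Rab3-GEF, Evi5, GAPcenA, Rim, BicD and Mical. Rim, the Rab3 effector at the active zone, had 290, 377 and 239 TPM in KD libraries and 200, 392 and 183 TPM in control libraries, with overlapping groups (log2 fold change 0.15, SE 0.74). Rab3-GEF, the exchange factor of Rab3, had 176, 83.2 and 142 TPM in KD libraries and 294, 122 and 85.2 TPM in control libraries, again overlapping (log2 fold change -0.49, SE 1.25). Gdi, which retrieves Rabs from membranes in general, had 476, 150 and 173 TPM in KD libraries and 165, 69.8 and 206 TPM in control libraries, where KD 1 was the highest (log2 fold change 0.74, SE 2.18). Rep, the escort protein for Rab prenylation, was at 0 in every library. Rph (rabphilin), another effector that binds Rab3, had 2, 2287 and 11 counts in KD libraries and 829, 0 and 51 counts in control libraries, so that 1 library in each group held nearly all of it.

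For endosomal Rabs, Rabex-5, an exchange factor of Rab5, was the one regulator that DESeq2 called, of the 32 to which it gave an adjusted p, where it called 5.46% of all genes. It had 1206, 137 and 3 counts in KD libraries and 0, 0 and 0 counts in control libraries, and all 3 KD libraries lay above the controls, KD 3 by only 3 counts. Groups that do not overlap were seen for 2 of the 45 regulators tested, Rabex-5 and the prenyl lipid synthase qm, against 6.62% of all genes. By the same limit of 3 counts for the control libraries together, the KD mean was at least 423-fold higher. KD 1 held most of it, and without KD 1 the bound was 57.0-fold, with a range of 57.0 to 632 over every library left out in turn. DESeq2 gave an adjusted p of 0.0257, while edgeR gave a log2 fold change of 11.79 (SE 6.26) and an adjusted p of 0.809. Rbsn-5 (rabenosyn), a Rab5 effector, had 0, 51 and 0 counts in KD libraries and 0, 85 and 0 counts in control libraries. Rip11, a Rab11 effector, had 984, 7 and 0 counts in KD libraries and 0, 1 and 0 counts in control libraries and was not tested, as it was found in 1 library only.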

How the data were processed

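The authors deposited raw counts per gene for 6 libraries of hand-picked neurons, whole numbers made with HTSeq 0.9.1 on BDGP6. No source used here names the aligner, the strand setting, the rule for reads that match several genes, or whether molecular identifiers were used. Of the other tables, one deposited by the authors holds the signal, counts divided by 1 size factor per library, and another deposited by the authors holds TPM. The authors' own DESeq2 comparison (fold changes, standard errors, p-values) was not used.

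Libraries were grouped by the labeled genotype. Raw counts of all genes were tested in R 4.3.3 with edgeR 4.0.16 (TMM, at least 10 counts in at least 2 of 6 libraries, quasi-likelihood test, two-sided, Benjamini-Hochberg adjustment over 4093 genes, threshold 0.05). The standard error is the fold change over the square root of the test statistic. DESeq2 1.42.0, limma 3.58.1 on log2(TPM + 1) and log2(TPM + 0.1), other scalings and filters, a replicate block and leaving out each library were alternatives. Floors are 3 counts and cover counting error only, since amplified reads are not independent molecules.

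Values in every library are given for Rab genes with 10 counts in 2 or more libraries and for any with an unadjusted p under 0.05 in edgeR or a DESeq2 call. Of the regulators, those that passed either and Gdi, Rep, Rab3-GEF, Rim, Rph, Rbsn-5 and Rip11 are described. RabX1, RabX6, Rab32, Rab21, Rab30, qm and the other regulators found in all libraries were named after their values were seen. The members and lists were chosen with earlier results of these data known. Coordinates come from the Ensembl BDGP6 annotation, in which all 33 Rab genes were matched by identifier. No sequences were used here.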

Additional observations from a re-analysis of the deposited data

How the results depend on the processing

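The number of Rab genes with an adjusted p under 0.05 was 0 under every alternative except DESeq2 without its filters, which gave 3, where 1460 of all genes (21.1%) were called. The number with an unadjusted p under 0.05 was 0 in edgeR, 2 in DESeq2, 4 in DESeq2 without its filters, 1 without a count filter (RabX1), 1 (Rab11) with limma on log2(TPM + 1), 1 (Rab11) with limma on log2(TPM + 0.1), and 0 to 1 (Rab39) with 1 library left out. The median log2 fold change was -0.22, and -1.38 with limma on log2(TPM + 0.1), and it ran from -1.26 to -0.07 with 1 library left out. Rab genes found in every library numbered 5, 3 at 100 counts, and 5 to 9 with 1 library left out, the 9 without KD 3. The endosomal difference in summed TPM was -704, -1186 in TPM without rRNA genes, and -864 to -475 with 1 library left out. It was -577 without RabX1, -947 without RabX1 and rRNA genes, -1058 with Rab39 added, and -931 with Rab39 added and without RabX1. These RabX1 and Rab39 variants were chosen after seeing the data, as were the fold bounds with 1 library left out. The secretory share differed by 3.44 percentage points in TPM and by -0.906 in size-factor normalized counts. The cause of these shifts was not tested. Over all genes, the number with an adjusted p under 0.05 was 2 in edgeR and 160 in DESeq2.

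Directions of single genes turned easily. With 1 library left out, log2 fold changes ran from -0.046 to 0.96 for Rab3, -1.19 to 0.82 for Rab1, -1.62 to 0.19 for Rab5, -1.26 to 2.10 for Rab10, -3.57 to 1.17 for Rab7, -0.82 to 0.68 for Rab6, -2.44 to 1.22 for Rab8, -2.40 to 0.37 for Rab26, -9.11 to 3.46 for Rab40, -2.18 to 1.63 for Rab35 and -2.07 to 11.40 for RabX4. Rab2, Rab4, Rab11, Rab14 and Rab39 kept their sign in every alternative that could be fitted. With 1 library left out, the ranges were -1.88 to -0.22 for Rab2, -5.07 to -0.52 for Rab4 and -7.58 to -2.24 for Rab11. They were -3.46 to -0.41 for Rab14 and -13.88 to -5.07 for Rab39. Rab18 ran from 10.67 to 11.31, but with 0 counts in every control library its sign could not turn. Without KD 1 or without KD 2, Rab18 was found in too few libraries to be fitted. With limma on log2(TPM + 1) and log2(TPM + 0.1), the values were -0.44 and -1.50 for Rab40, 0.73 and 0.88 for Rab35, 1.62 and 2.71 for RabX4, and 0.039 and 0.043 for Rab1. With total counts only Rab6 was at 0.026, and with TMMwsp factors RabX4 was at 0.14. Rab18 had an adjusted p of 0.0226 in DESeq2 without filters.

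The replicate numbers name no shared day, and same-numbered libraries did not deviate together (r = -0.0202, -0.00977 and 0.0246), so the libraries were not paired. With the replicate number as a block, 0 Rab genes were called, the median log2 fold change was -0.56, and the sign turned for Rab7 (-2.45), Rab40 (-7.33), Rab35 (0.32) and RabX4 (2.11).

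With 25 neurons and 3 libraries a group, many genes were at 0 in some libraries and high in others, and the biological coefficient of variation was 228%. Total counts were close, but size factors ran from 0.905 to 1.56.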
